A study of Sus scrofa with 20 samples.

Results

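The genes described are those that move the transmitters glutamate and GABA across membranes in the brain, together with the enzyme that turns glutamate into glutamine. 8 genes were listed by symbol, and 7 of them had a probe set (the group of probes that reads 1 transcript on the array) under that symbol. They are SLC17A7, SLC17A6 and SLC1A1, known from neurons, SLC1A2, SLC1A3 and GLUL, known from astrocytes, and SLC7A11, an exchanger of cystine and glutamate. The eighth, the astrocyte GABA transporter SLC6A11, has no probe set of that symbol in the annotation and was not analysed here. The 7 genes had 18 probe sets among the 47722 that were no controls, and the whole table named 13755 genes. For each gene the probe set with the highest mean over all arrays stands for the gene, and the others were used to see whether they gave the same picture.

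Hippocampus of German Landrace pigs, which the labels call adult, was profiled, 10 animals of the high-reactive (HR) and 10 of the low-reactive (LR) coping pattern, with 1 Affymetrix porcine Snowball array per animal. Per the study's methods, the animals were extremes of a backtest in early life, in which a piglet is held on its back and its struggling is scored, and they were also chosen by their haplotypes at a locus for coping behavior. HR against LR is therefore a contrast of behavior and of haplotype at once, and these cannot be told apart. Each array is a separate animal, array numbers only name the arrays within a group, and the sources used here give neither litter nor sex. RNA came from the whole tissue, in which fewer cells of a type and less RNA per cell cannot be told apart.

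Glutamate is loaded into synaptic vesicles by the vesicular transporters SLC17A7 (VGLUT1) and SLC17A6 (VGLUT2), which in rodents mark cortical and hippocampal neurons and subcortical neurons, respectively. After release it is cleared mainly by the astrocyte transporters SLC1A2 (GLT-1) and SLC1A3 (GLAST), with a part taken by the neuronal transporter SLC1A1 (EAAC1), which also brings cysteine into neurons. In the astrocyte, glutamine synthetase (GLUL) converts glutamate to glutamine, which returns to neurons. SLC7A11 (xCT) takes up cystine in exchange for glutamate and so feeds the synthesis of glutathione.

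All values are log2 expression values as deposited, on which a difference of 1 is a doubling. Probe sets were kept where their mean over the 20 arrays lay above 5.53, the median of all, which left 23861. 6 of the 7 transporter genes passed this filter and SLC17A6, with a mean of 4.31, did not. Hippocampal field markers were present (8 of the 9 named on the array were kept, among them PROX1 at 8.39 and NEUROD6 at 9.97), and so was the choroid plexus marker TTR at 10.1. The arrays differed along a first principal component that held 48.0% of the variance of the kept probe sets, with the HR array 5 at one end and the LR array 1 at the other, and its score averaged 8.41 ± 31.2 (SD, n = 10) in HR and -8.41 ± 27.0 (SD, n = 10) in LR (two-sided permutation p = 0.215). Over 24 background control probe sets with GC-rich probes, the mean was 7.31 ± 0.20 (SD, n = 10) in HR and 7.503 ± 0.20 (SD, n = 10) in LR (permutation p = 0.0484, adjusted p = 0.0726 over 3 array measures). The number in the sample titles, whose meaning is not stated, averaged 2863 in HR and 2601 in LR (permutation p = 0.00086, adjusted p = 0.00258).

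None of the 6 transporter genes that passed the filter differed between HR and LR at an adjusted p under 0.05, and none at an unadjusted p under 0.05, in the limma fit over all 23861 kept probe sets. The whole fit called 0 probe sets after adjustment, which is 0%, and 11.5% of the kept probe sets had an unadjusted p under 0.05, with 7.78% higher and 3.74% lower in HR. 3 of the 6 means were higher in HR and 3 lower, and their median difference was 0.03 against -0.01 over all kept probe sets. The differences of the 6 genes ranged from -0.07 to 0.18, and their 95% confidence intervals together spanned -0.36 to 0.40.

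**Figure D1:**
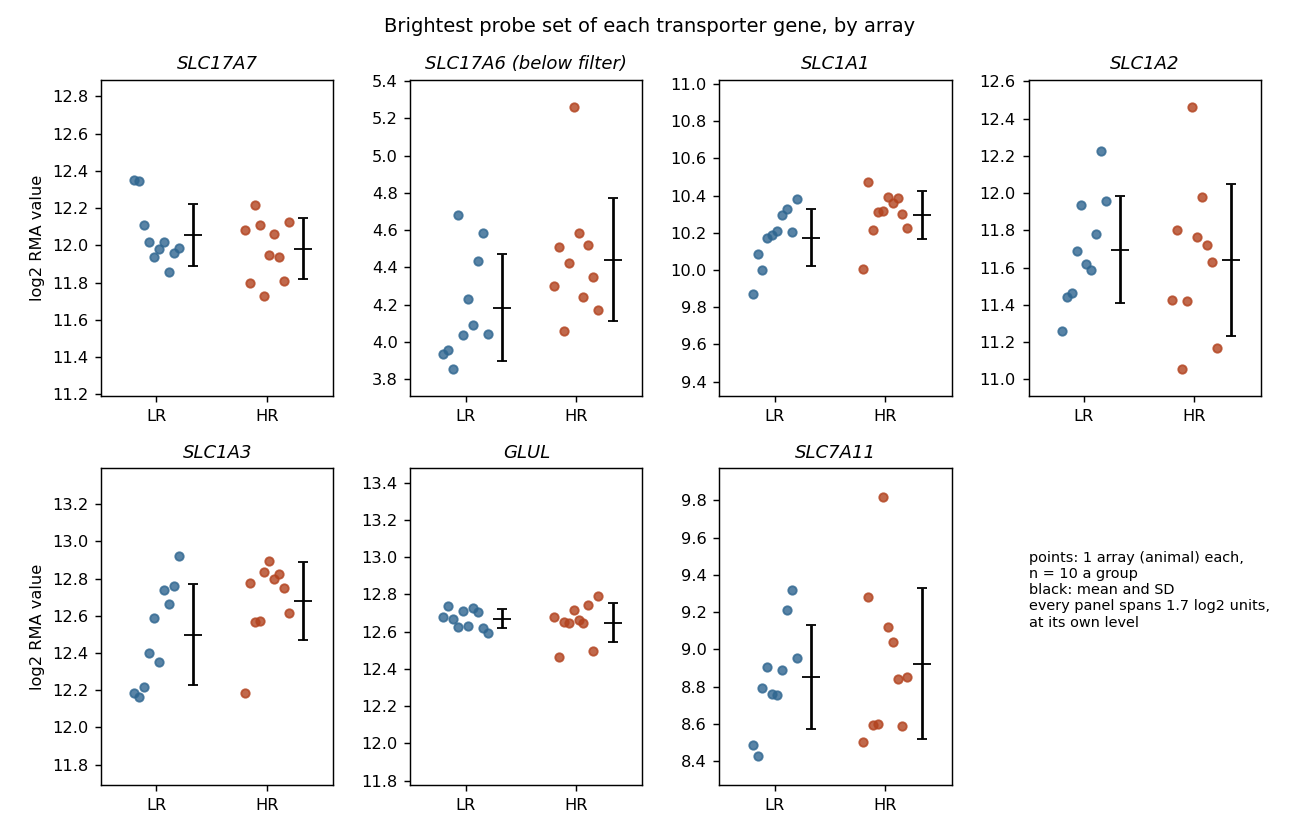
Log2 value of the brightest probe set of each transporter gene (y axis, every panel spanning the same number of log2 units at its own level) in the LR and HR groups (x axis), with 1 point per array, n = 10 a group, and the mean and SD in black. The HR and LR points overlap in all 7 panels, the GLUL points lie closest together, and the HR array 5 stands above the rest for SLC17A6, SLC1A2 and SLC7A11.

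Among the neuronal transporters, SLC17A7 (chromosome 6, 54511121 to 54521616 in Sscrofa11.1) ran from 11.73 through a median of 12.01 to 12.22 in HR, and from 11.85 through 12.001 to 12.35 in LR. The groups overlapped almost completely, and the LR median was exceeded by 5 of 10 HR arrays. The mean was 11.98 ± 0.16 (SD, n = 10) in HR and 12.06 ± 0.17 (SD, n = 10) in LR. The difference, HR minus LR, was -0.07 ± 0.08 (SE), with a 95% confidence interval of -0.24 to 0.09 and a limma adjusted p of 0.696. The sign of this small difference turned when the GC-rich background or the title number entered the fit (0.019 and 0.062).

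SLC17A6 (chromosome 2, 37098983 to 37138935) was dim on every array. Its values ran from 4.06 through 4.39 to 5.26 in HR and from 3.85 through 4.06 to 4.68 in LR. The highest array of all was HR array 5, and 9 of 10 HR arrays exceeded the median of LR. The mean of 4.44 ± 0.33 (SD, n = 10) in HR exceeded that of 4.18 ± 0.29 (SD, n = 10) in LR by 0.26 ± 0.13 (SE), a 1.20-fold difference with an interval of 0.99- to 1.45-fold. In the limma fit without the filter, its adjusted p was 0.550. Without the HR array 5 the difference was 0.17, and with the title number, the GC-rich background, the first principal component or the neuron markers in the fit it lay between 0.11 and 0.13. A probe set this dim can understate a change in its transcript.

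SLC1A1 (chromosome 1, 217366493 to 217441643) ran from 10.003 through 10.31 to 10.47 in HR and from 9.87 through 10.19 to 10.38 in LR. The LR median was exceeded on 9 of 10 HR arrays, and the HR array 1 and LR array 1 were the lowest of their groups. The difference was 0.12 ± 0.07 (SE), between a mean of 10.30 ± 0.13 (SD, n = 10) in HR and 10.17 ± 0.15 (SD, n = 10) in LR. Its interval ran from -0.02 to 0.27 and its limma adjusted p was 0.478. An exact Wilcoxon test gave an unadjusted p of 0.0288 and an adjusted p of 0.420. With the title number in the fit the difference was -0.033, and with the GC-rich background it was 0.016.

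The astrocyte transporter SLC1A2 (chromosome 2, 25603892 to 25771840) spread widely among animals, from 11.06 through 11.68 to 12.46 in HR and from 11.26 through 11.66 to 12.22 in LR. HR array 3 was the lowest and HR array 5 the highest of all 20, so that the LR range lay inside the HR range. The means of 11.64 ± 0.41 (SD, n = 10) in HR and 11.70 ± 0.29 (SD, n = 10) in LR differed by -0.05 ± 0.15 (SE), with an interval of -0.36 to 0.25 and a limma adjusted p of 0.889. With the GC-rich background in the fit the difference was -0.31 (unadjusted p = 0.0103, limma adjusted p = 0.706). It was -0.24 with the first principal component (unadjusted p = 0.00154, limma adjusted p = 0.166) and -0.29 with the neuron markers (unadjusted p = 0.00105, limma adjusted p = 0.315), fits in which 3230 and 2638 of all kept probe sets had an unadjusted p under 0.05. It was 0.012 without the HR array 3 and 0.005 without the LR array 9, and -0.14 without the HR array 5.

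SLC1A3 (chromosome 16, 21873691 to 21965315) ran from 12.18 through 12.76 to 12.89 in HR and from 12.16 through 12.49 to 12.92 in LR. In HR, 9 of 10 arrays exceeded the median of LR, and the remaining one, HR array 1, lay with the lowest LR arrays. The mean of 12.68 ± 0.21 (SD, n = 10) in HR and of 12.50 ± 0.27 (SD, n = 10) in LR gave a difference of 0.18 ± 0.11 (SE), a 1.13-fold difference with an interval of -0.04 to 0.40 on the log2 scale. The limma adjusted p was 0.488. Without the HR array 1 the difference was 0.24, with an unadjusted p of 0.0229 and a limma adjusted p of 0.196. With the GC-rich background in the fit it was -0.023, and with the title number -0.062. The part that these array measures have in the difference was not tested.

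Glutamine synthetase, GLUL (chromosome 9, 123751551 to 123762575), was the steadiest of the 7 genes by its brightest probe set, though not by its second kept one. Its values ran from 12.46 through 12.66 to 12.79 in HR and from 12.59 through 12.67 to 12.74 in LR. Only 0.415% of the kept probe sets had a smaller SD within the groups, and the same share was between 11.0% and 84.5% for the other 5 kept genes. The difference was -0.02 ± 0.05 (SE), between 12.65 ± 0.10 (SD, n = 10) in HR and 12.67 ± 0.05 (SD, n = 10) in LR, with an interval of -0.13 to 0.09 and a limma adjusted p of 0.881. High probe set values can lie near the upper end of an array's range, which reaches 14.4, and saturation cannot be read from the deposited values.

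The cystine and glutamate exchanger SLC7A11 (chromosome 8, 88608083 to 88690589) ran from 8.50 through 8.85 to 9.82 in HR and from 8.43 through 8.84 to 9.32 in LR. The group medians were nearly equal and the HR array 5 stood highest. The means of 8.92 ± 0.41 (SD, n = 10) in HR and 8.85 ± 0.28 (SD, n = 10) in LR differed by 0.07 ± 0.15 (SE), with an interval of -0.23 to 0.38 and a limma adjusted p of 0.845. Without the HR array 5 the difference was -0.026.

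Other probe sets of the same symbols gave no call either. The second probe set of SLC1A3 (mean 10.5) followed the first closely over the arrays (r = 0.967) and was higher in HR by 0.28 ± 0.15 (SE, unadjusted limma p = 0.0793). SLC7A11 had 8 probe sets with means from 1.74 to 8.89, of which 3 passed the filter. The other pair that passed correlated with the brightest at r = 0.939 and 0.880, and their differences were -0.019 and 0.31. GLUL had a second kept probe set with a difference of -0.070, which followed the first only in part (r = 0.543). This dimmer probe set (mean 6.84) was not as steady, and 65.5% of the kept probe sets had a smaller SD within the groups. The dim second probe set of SLC1A2 (mean 4.87) showed r = 0.406 with the first and a difference of 0.041. SLC17A7, SLC17A6 and SLC1A1 had 1 probe set each, so nothing on the array checks them.

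**Figure D2:**
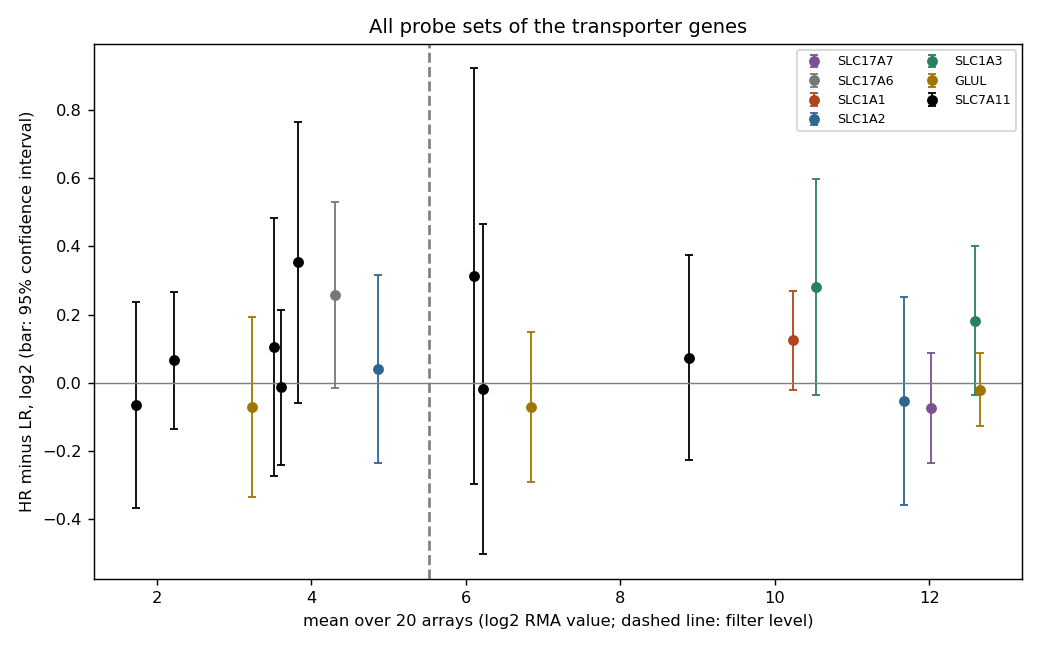
Difference HR minus LR on the log2 scale (y axis, bars 95% confidence intervals) against the mean over the 20 arrays (x axis, log2) for all 18 probe sets of the 7 transporter genes, coloured by gene. Every interval crosses 0, and 10 of the 18 probe sets lie right of the dashed filter level.

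34 further genes of glutamate and GABA handling were listed by role. 24 had a probe set and 22 of these passed the filter. 0 of the 22 passed the limma adjusted threshold. At an unadjusted p under 0.05, 3 of the 22 were higher in HR and 0 lower, beside the 7.78% and 3.74% of all kept probe sets. Their means were higher in HR for 12 and lower for 10, and the median difference was 0.03.

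The 3 were KCNJ10, ARL6IP5 and ALDH5A1. KCNJ10 encodes Kir4.1, the astrocyte potassium channel that holds the membrane potential on which glutamate uptake depends. It was 9.10 ± 0.14 (SD, n = 10) in HR and 8.86 ± 0.20 (SD, n = 10) in LR, a difference of 0.24 ± 0.08 (SE) with an unadjusted p of 0.00718 and a limma adjusted p of 0.319. All 10 HR arrays exceeded the median of LR, and the difference stayed at 0.24 with the GC-rich background or the title number in the fit. Its other kept probe sets differed by 0.15 and 0.16. ARL6IP5, whose rodent protein binds and restrains SLC1A1, was 11.24 ± 0.08 (SD, n = 10) in HR and 11.02 ± 0.22 (SD, n = 10) in LR, a difference of 0.22 ± 0.08 (SE, limma adjusted p = 0.337), with 10 of 10 HR arrays above the median of LR. With the title number in the fit that difference was 0.056. ALDH5A1, which oxidises succinic semialdehyde, a product of GABA breakdown, was 8.52 ± 0.18 (SD, n = 10) in HR and 8.28 ± 0.19 (SD, n = 10) in LR, a difference of 0.24 ± 0.09 (SE, limma adjusted p = 0.339) with 9 of 10 HR arrays above the median of LR, and its second probe set differed by 0.43 ± 0.14 (SE, unadjusted limma p = 0.00664). When limma weighted the arrays by how closely each fitted, these 3 genes passed with adjusted p-values of 0.0442, 0.0397 and 0.0392, and so did 3.97% of all kept probe sets, or 3.34% counting those higher in HR. None of the 7 transporter genes did, with SLC1A3 the nearest at an adjusted p of 0.127.

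The other named genes of the list did not pass at an unadjusted p under 0.05 by their brightest probe sets. GAD2, a GABA-synthesising enzyme, was higher in HR by 0.23 ± 0.12 (SE), and by 0.012 with the GC-rich background in the fit. The glutamine carrier SLC38A1 was higher by 0.18 ± 0.11 (SE), and its partner in the glutamine shuttle, SLC38A2, lay below the filter with a difference of -0.047. Other kept probe sets of SLC38A1 differed by -0.010, 0.092 and 0.36, the last with an unadjusted limma p of 0.0441. The neutral amino acid exchangers SLC1A5 and SLC1A4 differed by -0.13 ± 0.10 (SE) and -0.11 ± 0.09 (SE). A second kept probe set of SLC1A4 differed by -0.21 ± 0.10 (SE, unadjusted limma p = 0.0414). PRAF2, of the same protein family as ARL6IP5, differed by -0.12 ± 0.10 (SE). The mitochondrial aspartate and glutamate carriers SLC25A12 and SLC25A13 differed by 0.049 and 0.033, and the water channel AQP4 by 0.053 ± 0.13 (SE). The brightest probe sets of the 9 genes of this paragraph had unadjusted limma p-values from 0.0718 upwards.

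**Figure D3:**
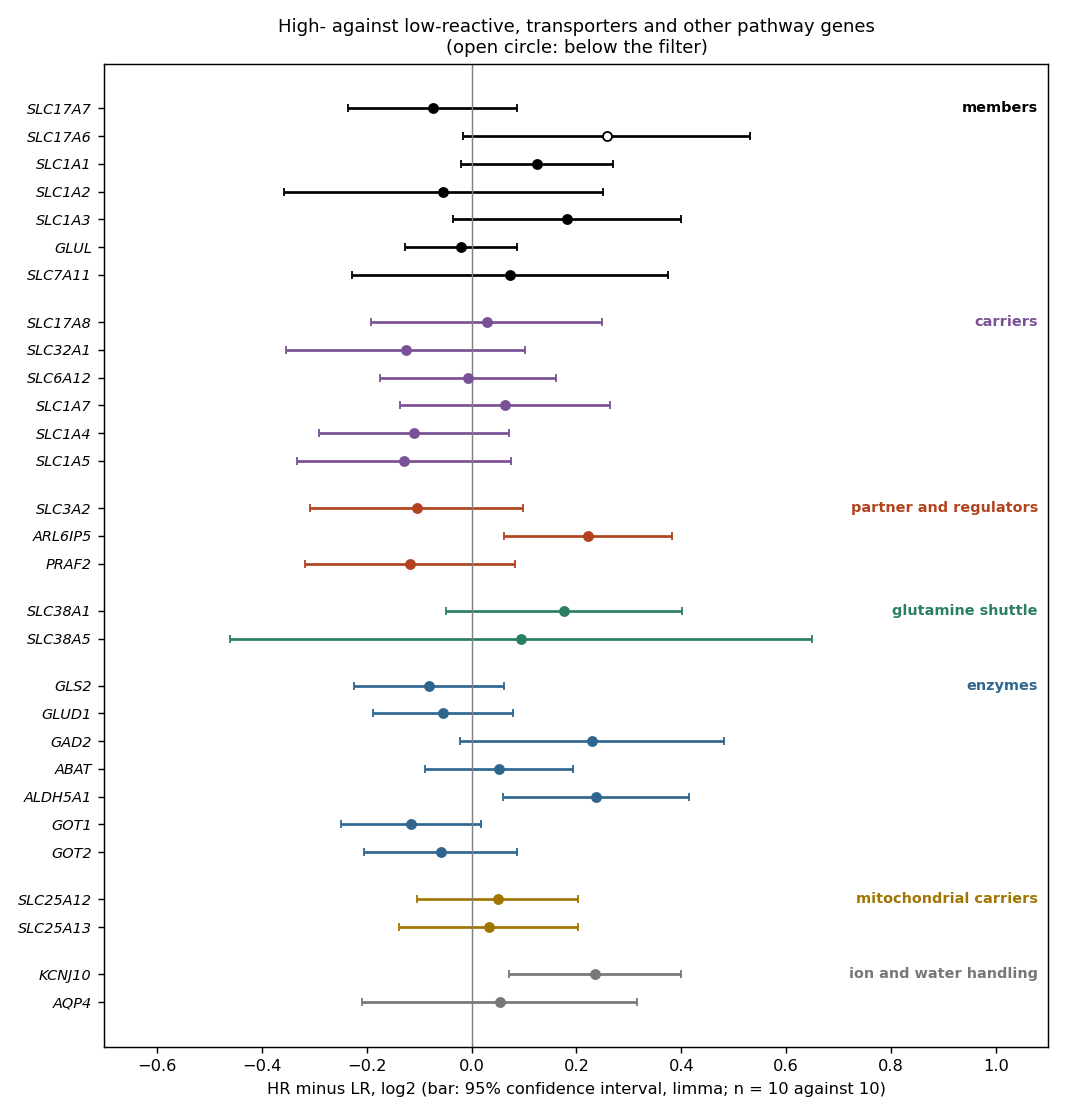
Difference HR minus LR on the log2 scale (x axis) with its 95% confidence interval (bar, limma, n = 10 against 10) for the 7 transporter genes and the 22 kept pathway genes (y axis), coloured by role. All 7 intervals of the transporter genes cross 0, and those of ARL6IP5, ALDH5A1 and KCNJ10 lie above it.

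With group differences this small, most of the variation in the transporter genes lay between animals within the groups, and it was shared among the genes. Of 21 pairs of the 7 genes, 12 correlated over the 20 arrays at an adjusted permutation p under 0.05 for Pearson's r, 7 of them positively and 5 negatively, and the same 12 passed for Spearman's rho, with 3 further pairs. The 12 include pairs of SLC17A6, whose only probe set lay below the filter. Its r with SLC1A2 was 0.633, and 0.429 without the HR array 5 (adjusted permutation p = 0.0876). Its pairs with SLC17A7 and SLC7A11 still passed without that array. The arrays as a whole vary along 1 strong axis, so a high correlation is common here. For the passing pairs described next, the share of kept probe sets that correlate as strongly with the same gene is therefore given.

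SLC1A1 and SLC1A3, a neuronal and an astrocyte transporter, went most closely together. Over 20 arrays r was 0.888 (permutation p = 1e-05, the smallest that 100000 resamples can give, adjusted p = 0.00021) and rho was 0.862 (permutation p = 1e-05). r was 0.903 within HR and 0.848 within LR, and 0.860 without the LR arrays 1 and 3, which lay farthest from the SLC1A1 median. 0.78% of the kept probe sets correlated as highly with SLC1A1, and 3.12% with SLC1A3. After the first principal component was removed r was 0.680, and after the GC-rich background was removed it was 0.564 (adjusted permutation p = 0.0686).

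SLC1A2 and SLC7A11 formed the next pair, with r of 0.799 (permutation p = 6e-05, adjusted p = 0.00063) and rho of 0.768 (permutation p = 0.00021). r was 0.827 within HR, 0.790 within LR and 0.692 without the HR arrays 5 and 3. 8.08% of the kept probe sets correlated as highly with SLC1A2 and 6.23% with SLC7A11. With the first principal component removed r was 0.230 and no longer passed (adjusted permutation p = 0.656). SLC1A2 and SLC1A3, the astrocyte pair, correlated more loosely (r = 0.575, permutation p = 0.00793, adjusted p = 0.0151, and rho = 0.710, permutation p = 0.00073). As many as 22.4% of the kept probe sets correlated as highly with SLC1A3, and slightly fewer with SLC1A2, so a correlation of this size was common here. r was 0.580 within HR and 0.796 within LR, and 0.620 without the HR arrays 5 and 3. With the first principal component removed it was -0.62 (adjusted permutation p = 0.0305).

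SLC17A7 ran opposite to the other transporters. Its r was -0.72 with SLC7A11, -0.71 with SLC1A2 and -0.68 with each of SLC17A6, SLC1A1 and SLC1A3 (adjusted permutation p from 0.0021 to 0.002992), and rho lay between -0.75 and -0.60. Within HR r ranged from -0.79 to -0.51 and within LR from -0.82 to -0.55. Without the LR arrays 1 and 2, the highest in SLC17A7, r was -0.72 with SLC1A2, -0.64 with SLC7A11 and -0.62 with SLC17A6, but -0.49 with SLC1A1 and -0.48 with SLC1A3, and these last 2 relations no longer passed the threshold. Between 9.48% and 13.0% of the kept probe sets correlated with SLC17A7 as negatively as one of these 5 genes did. With the first principal component removed, none of the 5 passed, and r lay between -0.20 and 0.12. GLUL passed with none of the other 6 genes, its r lying between -0.29 and 0.37. Without the HR array 5, its r with SLC17A7 was 0.495 and passed narrowly (adjusted permutation p = 0.0498).

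**Figure D4:**
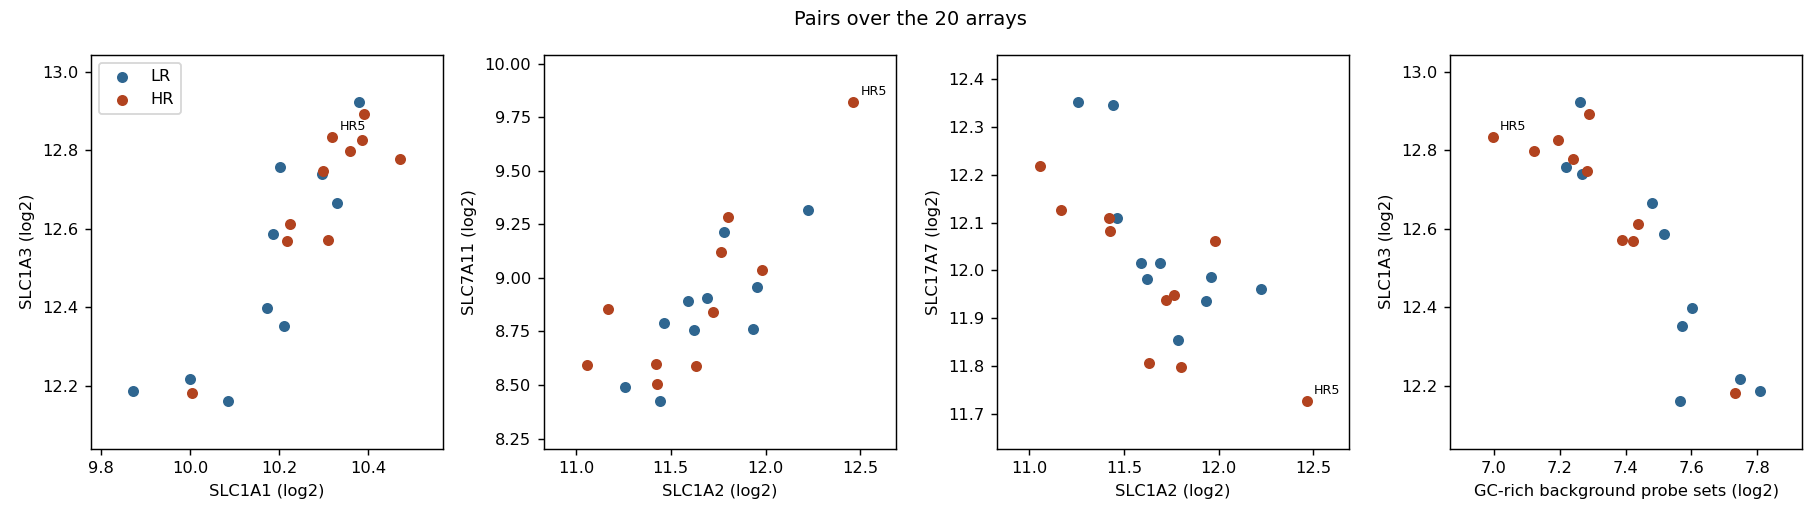
Values of 1 gene or array measure against another over the 20 arrays (both axes log2, LR blue, HR red, 1 point per animal, HR array 5 named). SLC1A3 rises with SLC1A1 and SLC7A11 with SLC1A2, SLC17A7 falls as SLC1A2 rises, and SLC1A3 falls as the GC-rich background rises, with HR and LR points along the same lines.

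Markers of cell types and measures of the arrays moved with the same genes. Of the neuron markers 8 of 10 listed were kept, and their mean ran from 10.38 to 10.86 in HR and from 10.28 to 10.72 in LR. That mean correlated with SLC1A3 at r = 0.896, with SLC1A2 at 0.805, with SLC1A1 at 0.800, with SLC7A11 at 0.793 and with SLC17A6 at 0.697 (adjusted permutation p from 0.0002567 to 0.00561 over 77 relations). With SLC17A7 it correlated at -0.81. Spearman's rho was -0.75 for SLC17A7 and lay between 0.639 and 0.934 for the other 5. Without the HR array 5 and the LR array 1, at the ends of the neuron mean, r with these 5 genes lay between 0.527 for SLC17A6, which then no longer passed the threshold (adjusted permutation p = 0.162), and 0.903 for SLC1A3. The mean of the 9 kept astrocyte markers ran from 10.17 to 10.35 in HR and from 10.13 to 10.37 in LR. It correlated with SLC1A3 at -0.26, with SLC1A2 at -0.33 and with GLUL at 0.149, and none of these 3 passed the threshold. The interneuron mean, from 8.28 to 8.73 in HR and from 8.42 to 8.82 in LR, fell as SLC7A11 rose (r = -0.85, adjusted permutation p = 0.000308, rho = -0.79, and r = -0.70 without the HR array 5 and the LR array 9). This mean also fell as SLC1A3 (-0.69), SLC1A2 (-0.675) and SLC17A6 (-0.65) rose, and rose with SLC17A7 (0.602). Their adjusted permutation p lay between 0.00664 and 0.0312, but SLC17A6 and SLC17A7 did not pass for rho. Leaving out the HR array 5 and the LR array 9 gave r of -0.72 with SLC1A3, which still passed. In that setting r was -0.38 with SLC1A2, -0.33 with SLC17A6 and 0.493 with SLC17A7. None of these passed any longer (adjusted permutation p from 0.206 to 0.455). SLC1A3 further correlated with the microglia mean at -0.65 (adjusted permutation p = 0.0169) and the ependyma mean at 0.602 (adjusted permutation p = 0.0306, not passing for rho). For the ependyma mean r was -0.21 within HR and 0.842 within LR. Without the 2 arrays farthest in each mean, r was -0.54 for microglia and 0.461 for ependyma. Neither then passed (adjusted permutation p = 0.152 and 0.223). With the first principal component removed, none of the relations to these means passed. The part of cell composition in any of these values was not tested.

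The astrocyte markers were split among themselves, and so were the neuron markers. SLC1A2 rose with the water channel AQP4 (r = 0.922, permutation p = 1e-05, rho = 0.863, and r = 0.862 without the 2 arrays farthest in AQP4) and SLC1A3 with the gap junction gene GJA1 (r = 0.948, permutation p = 1e-05, rho = 0.935, and r = 0.928 without the 2 farthest in GJA1). Both transporters fell as NDRG2, ALDH1L1, ALDOC and GFAP rose, with r from -0.70 to -0.62 for SLC1A2 and from -0.82 to -0.61 for SLC1A3. SLC17A7, a neuronal gene, rose with ALDOC (0.823), ALDH1L1 (0.816) and NDRG2 (0.769) and fell as AQP4 (-0.79) and GJA1 (-0.73) rose. SLC1A2 also rose with the neuronal genes SYT1 (0.916) and MAP2 (0.878), and SLC1A3 with the neurofilament genes NEFL (0.932) and NEFM (0.916), while the neuronal genes RBFOX3 (-0.51) and GAP43 (-0.55) ran opposite to SLC1A2. These 2 were weaker without the HR array 5, at -0.35 and -0.34, and GAP43 did not pass for rho (adjusted permutation p = 0.0706). With SLC1A3, r was -0.46 for RBFOX3, which passed only for rho (-0.59), and -0.16 for GAP43. Of 119 relations of a gene to a single marker, 82 passed the adjusted threshold, and only 1 of the 17 with GLUL, that with S100B (0.496). That relation did not pass for Spearman's rho (0.364, adjusted permutation p = 0.156), and its r was 0.247 without the HR array 2. The share of all kept probe sets that correlate as strongly with a marker was not computed. Nor were the relations to single markers computed with the first principal component removed. Because the arrays vary along 1 strong axis, the count of 82 cannot be read as particular to the transporter genes.

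**Figure D5:**
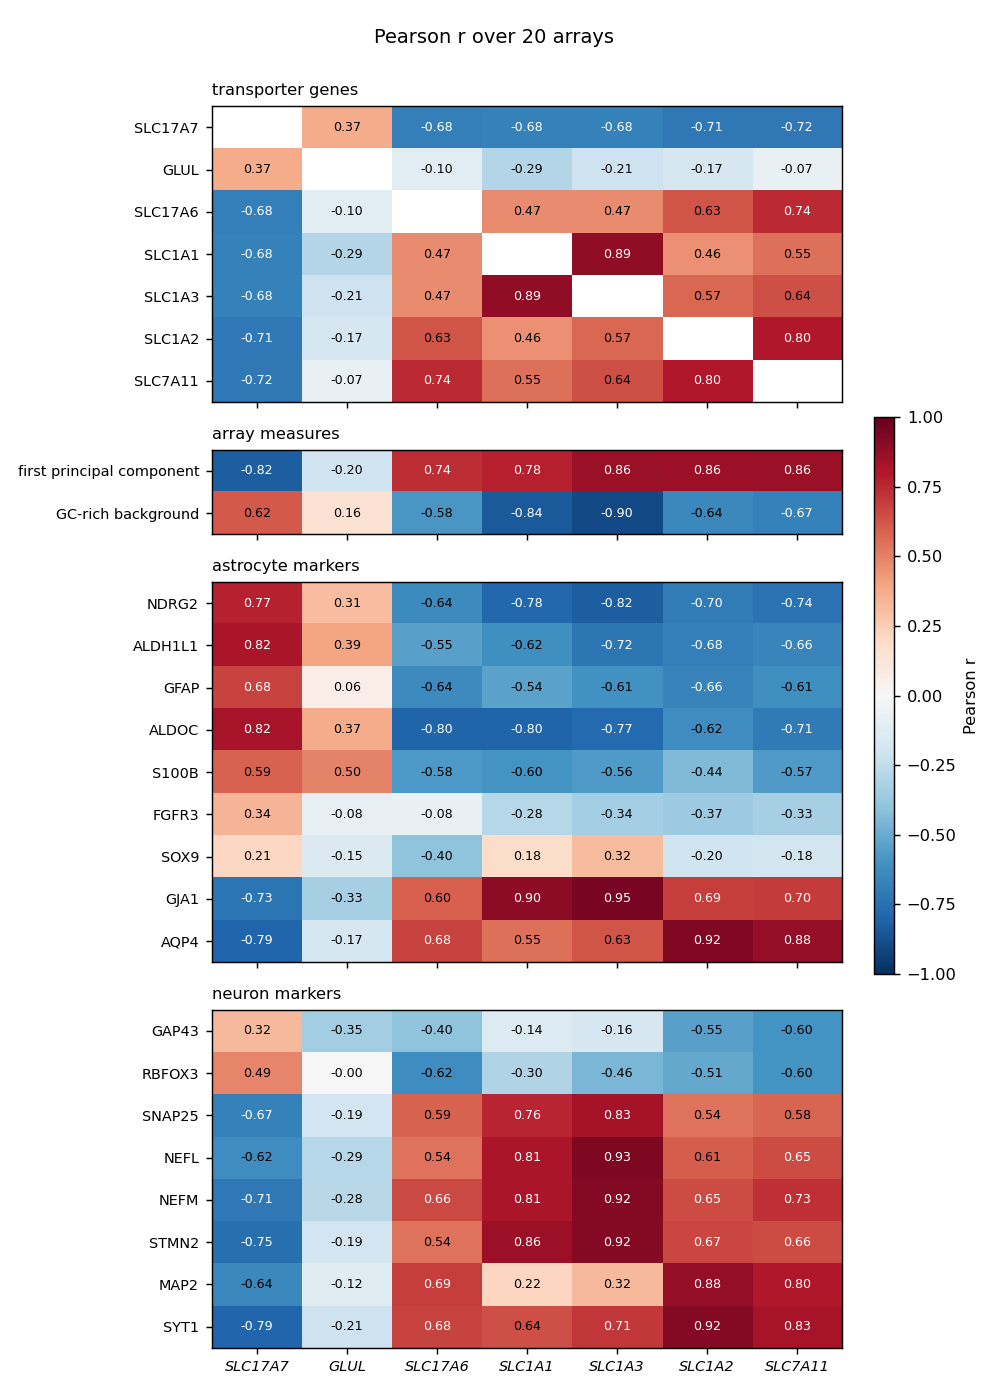
Pearson r over the 20 arrays (colour and printed value) of each transporter gene (columns) with the other transporter genes, with 2 array measures, and with the kept astrocyte and neuron markers (rows). Within both marker lists some rows are red and others blue for the same transporter, SLC17A7 has the reverse colours of the 5 genes right of GLUL in most rows, and GLUL is the palest column.

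The first principal component was computed over the kept probe sets, which hold the transporter genes except SLC17A6. It correlated with each transporter gene in the same direction as the neuron mean did. Its score correlated with SLC7A11 at r = 0.863, with SLC1A3 at 0.861, with SLC1A2 at 0.856, with SLC1A1 at 0.780 and with SLC17A6 at 0.736, at -0.82 with SLC17A7 and at -0.20 with GLUL. The GC-rich background correlated most with SLC1A3 (r = -0.90, permutation p = 1e-05, rho = -0.87, -0.89 within both HR and LR) and SLC1A1 (r = -0.84, rho = -0.78), and at 0.617 with SLC17A7. The title number correlated with SLC1A1 at 0.791 and with SLC1A3 at 0.725. Of the 21 relations to the 3 array measures 15 passed the adjusted threshold, and none of the 3 with GLUL. The share of all kept probe sets that would pass was not computed, so this count cannot be read as particular to the transporter genes. After the GC-rich background was removed, 1 of the 21 pairs of transporter genes passed the threshold, SLC1A2 and SLC7A11 (r = 0.646). After the first principal component was removed, 3 passed, not all of them as before. SLC1A1 and SLC1A3 kept their sign (r = 0.680), and SLC1A2 and SLC1A3 turned to -0.62. SLC1A1 and SLC1A2 passed at -0.65 (adjusted permutation p = 0.0264), while over the unadjusted arrays they had not (r = 0.458, adjusted permutation p = 0.0601). The source of these array measures was not tested.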

How the data were processed

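Total RNA of 20 hippocampus samples, 10 HR and 10 LR by the coping pattern given in the labels, was hybridised to 1 Affymetrix Snowball array each. The deposited values are log2 values that the authors made by robust multichip averaging (RMA), which corrects background, equalises the arrays' distributions and summarises each probe set, so that a shift shared by most transcripts cannot be seen. The submitters' processing notes name GCOS 1.1.1 for the scans. The authors' detection filter was not applied, and all 47845 probe sets were present. The values ran from 0.687 to 14.4, with a median from 5.48 to 5.57 on each array. Precision is set by the number of arrays, which have no read depth.

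Without the 123 controls, the brighter 23861 of the probe sets were kept. Of the non-control probe sets 26426 carried 1 gene symbol in the platform annotation, 0 several and 21296 none, and these symbols can be old. Gene positions came from the RefSeq annotation of Sscrofa11.1 by symbol, and the place of the probes within the genes was not looked up. The groups were set against each other in limma 3.58.1 (lmFit, eBayes, two-sided, R 4.3.3), p-values were adjusted by Benjamini and Hochberg's method over the 23861 probe sets at 0.05, and the fit was tested on simulated data. SLC17A6 took its values from the fit without the filter. Correlations over arrays used 100000 permutations drawn in NumPy 2.4.6, adjusted within each family of relations. SciPy 1.17.1 gave the ranks and the permutation test of the array measures between HR and LR. The design foresaw pairs of all 8 genes, and 21 pairs could be formed.

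All transporter genes are named, and of the pathway list every gene with an unadjusted p under 0.05 and the 2 with the smallest p of each role, and the 3 most alike genes of each transporter. Other single markers were named after their values were seen. The genes and lists were chosen with earlier results of these data known. Alternatives covered the filter, 1 probe set per gene, the mean of a gene's kept probe sets, centring, array weights, an exact Wilcoxon test, covariates (title number, GC-rich background, first principal component, and the means of choroid plexus, astrocyte and neuron markers) and leaving out each array. Correlations after removing the first principal component or the GC-rich background, or without the HR array 5, were chosen after seeing the data.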

Additional observations from a re-analysis of the deposited data

Results flagged for a closer look

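Values of 38 groups of 10 arrays were looked at for a single array far from the others, and 2 stood out, while chance alone flags about 1 in 20 groups. The value of SLC17A6 in the HR array 5 was 5.26, against 4.58 in the next highest HR array, a gap of 0.564 of the group's whole range. The value of SLC1A3 in the HR array 1 was 12.18, against 12.57 in the next lowest HR array, a gap of 0.544 of the range. Both gaps exceed Dixon's critical value for groups of this size. The difference of SLC17A6 without the HR array 5 and that of SLC1A3 without the HR array 1 stand with each gene above.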

How the results depend on the processing

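No transporter gene passed the adjusted threshold under any alternative, the smallest adjusted p being 0.127 for SLC1A3, and the group differences are small enough that their signs move. The difference HR minus LR of SLC17A7 turned to 0.0617 with the title number, 0.0192 with the GC-rich background, 0.0032 with the first principal component and 0.0231 with neuron markers in the fit. For SLC7A11 these 4 gave -0.1575, -0.1609, -0.1022 and -0.136, for AQP4 -0.152, -0.1503, -0.1056 and -0.1389, for SLC25A12 -0.0862, -0.0649, -0.0135 and -0.0292, and for SLC25A13 -0.1209, -0.0823, -0.0421 and -0.0497. With the title number, the GC-rich background and neuron markers, PRAF2 turned to 0.0167, 0.0252 and 0.0262, SLC1A4 to 0.0144, 0.0107 and 0.0073, and SLC1A5 to 0.0744, 0.0535 and 0.0168. With the title number and the GC-rich background, SLC1A3 turned to -0.0617 and -0.023 and SLC38A1 to -0.0573 and -0.033. SLC1A1 turned to -0.0325 with the title number, and SLC1A2 to 0.0076 with choroid plexus markers.

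Leaving out 1 array in turn moved SLC1A2 between -0.1448 and 0.0116, above 0 without the LR array 9 or the HR array 3. GLUL lay between -0.0361 and 0.0006 (above 0 without the HR array 2), SLC7A11 between -0.0256 and 0.1258 and AQP4 between -0.0249 and 0.106 (both below 0 without the HR array 5). SLC17A6, at 0.258, kept its sign under all alternatives run but was 0.1278, 0.1118, 0.1315 and 0.1097 with the title number, the GC-rich background, the first principal component and neuron markers. The count of all probe sets past the adjusted threshold, 0 in the limma fit (2750 at an unadjusted p under 0.05, and 0 and 2294 by the exact Wilcoxon test), was 2 where each gene kept 1 probe set, 947 under array weights, and 1 when either neuron markers or the first principal component entered the fit. Without 1 array it lay between 0 and 110, with 110 without the HR array 1 and 1 without each of the LR arrays 7 and 9 and the HR array 4. Under 0.05 unadjusted, array weights gave SLC1A1 0.0237 and SLC1A3 0.0172, among 5611 probe sets.

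Of the pairs of transporter genes, 12 in the pooled arrays, 6 passed within HR, 7 without the 2 farthest arrays, 3 with the first principal component removed and 1 with the GC-rich background removed. Of the relations to marker means, 13 passed in the pooled arrays, 6, 8, 1 and 4 in these settings, and 8 without the HR array 5. These counts do not always hold the same relations. The 1 with the first principal component removed was the glutamatergic hippocampal field mean with SLC17A7 (r = 0.7053, adjusted permutation p = 0.0424). It had not passed in the pooled arrays (r = 0.4271, adjusted permutation p = 0.163), so none of the 13 passed in that setting. With the first principal component removed, r turned to 0.1153 for SLC17A7 and SLC1A3, -0.6453 for SLC1A1 and SLC1A2, -0.6156 for SLC1A2 and SLC1A3, -0.3994 for SLC1A3 and SLC7A11, -0.0591, -0.1332 and -0.2774 for the neuron mean with SLC17A6, SLC1A2 and SLC7A11, and 0.0777 and 0.2441 for the astrocyte mean with SLC1A2 and SLC1A3. With the GC-rich background removed it was -0.1889 for SLC1A1 and SLC1A2, -0.0164 for SLC1A2 and SLC1A3 and 0.0507 for the astrocyte mean with SLC1A3. The astrocyte mean with GLUL gave -0.0234 within LR. The causes were not tested. No paired analysis was possible because the labels give no replicate numbers that pair HR with LR animals.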

Other observations

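Among 10307 named genes with a kept probe set, the genes most like each transporter over the 20 arrays, after group means were removed, were listed by Pearson's r as a description. SLC17A7 was followed most closely by PTK2B (0.964), RUSC2 (0.962) and PDE2A (0.960). SLC17A6 was followed by FSD1L, NBEA and KIAA2026 at 0.890 to 0.903. For SLC1A1 they were UBE2J1 (0.934), IFRD1 (0.932) and MAPRE1 (0.929), and for SLC1A2 DNAL1 (0.971), PAFAH1B1 (0.964) and ACTR2 (0.962). SLC1A3 came closest to any other gene, with PDLIM5 at 0.980, DNAJB9 at 0.974 and GPR75 at 0.971. SLC7A11 was followed by SNAPC1 (0.942), PSMD12 (0.930) and DLD (0.926). GLUL had no partner as close, with SGK1 at 0.746, the platform symbol MIR124A-2 at 0.740 and ADAT1 at 0.717. These values were picked as the highest of many, and all 20 arrays share the strong axis described above.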
